A study of Lithospermum officinale with 3 samples.

Results

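The root-peaked abundant unigenes of *Lithospermum officinale* are 122 assembled transcripts, of 77047 in all, whose counts in the root library far exceeded those in the stem and leaf libraries. *L. officinale* is a medicinal herb of the borage family, and a unigene is a sequence put together from the reads without a genome. The study sequenced messenger RNA from root, stem and leaf of plants aged 2 years that had grown outdoors, with 1 library per tissue and no treatment. Its stated interest is the genes of specialized metabolism. Pieces or variants of the same gene can be separate unigenes. The deposited tables identify unigenes by number only, so no gene name, function, pathway or chromosome position is given below, and the tissue labels could not be checked against marker genes.

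Roots anchor the plant, take up water and ions and, in the borage family, are known for lipophilic naphthoquinone pigments. In *Lithospermum erythrorhizon*, a related species, shikonin derivatives collect in the outer root tissues and are built from a phenylpropanoid-derived acid and a terpenoid side chain. Which of the unigenes below, if any, belong to that pathway is not known from these files.

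Membership followed 3 conditions. The 100 unigenes with the most counts over the 3 libraries were set aside. Each remaining count was divided by the library's sum without those 100, which gives the share used below. A member had at least 300 root counts and a root share at least 8 times the stem share and at least 8 times the leaf share, with a count of 0 taken as 0.5. Outside the 100 most counted, 3019 unigenes reached 300 root counts. Of these, 149 passed 8-fold over stem, which is 4.94%, and 236 passed 8-fold over leaf, which is 7.82%. Both limits were passed by 122, or 4.04%. The comparison with stem was the tighter limit, since 114 unigenes passed over leaf and not over stem, against 27 that passed over stem and not over leaf. Members were thus chosen by the root to stem and root to leaf ratios and the root count, so every root ratio below is a description and was not tested. A further 9 of the 100 most counted unigenes passed both ratios and are not members.

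The library totals were 10045956 expected counts in root, 4469828 in stem and 3490670 in leaf. Without the 100 most counted unigenes they were 4351427, 2525988 and 1432056 in the same order of tissues. Since each tissue had 1 library, values carry no error between replicates and tissues were not compared by a test. Intervals are exact 95% intervals and cover counting error only. A count of 0 in leaf may stand for a low level, and was also set to 3 counts where stated. Fewer cells of a type in a tissue and less RNA per cell cannot be told apart in such libraries.

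Members were abundant in root and scarce, but mostly present, in the shoot. Their level ran from 11.5 to 915 TPM (RSEM's transcript level per length, scaled to the library) in root, with a median of 80.2 TPM. In stem the levels ran from 0.16 to 45.4 TPM, with a median of 4.23 TPM. In leaf they ran from 0 to 20.8 TPM, with a median of 1.5 TPM. In root 53 members stood at 100 TPM or more, and in stem and leaf 0 did. Every member had a count in stem, while 12 had 0 counts in leaf. A level of 1 TPM or more was reached by 103 members in stem and 71 in leaf, and 19 stayed under 1 TPM in both.

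**Figure D1:**
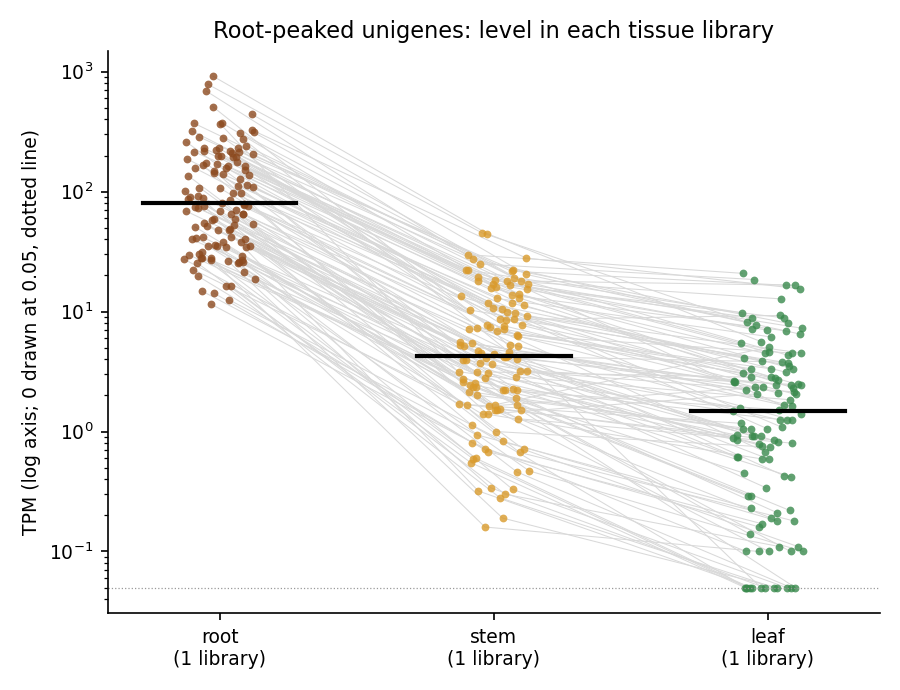
Level of each of the 122 root-peaked unigenes in the root, stem and leaf libraries, in TPM on a log axis. Each point is 1 unigene, grey lines join the same unigene, black bars are the medians (80.2, 4.23 and 1.5 TPM), and the 12 unigenes with 0 leaf counts are drawn at 0.05.

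Of all root counts, 1.67% fell on the members (exact binomial 95% interval 1.66% to 1.67%). The members' share was 0.134% in the stem library (0.131% to 0.138%) and 0.0560% in the leaf library (0.0535% to 0.0585%). Without the 100 most counted unigenes in the denominator, root held 3.85%, stem 0.238% and leaf 0.136%. Counts were unevenly spread over the set, since the 10 members with the most root counts held 32% of the members' root counts, and the first 20 held 51.2%. The median member had 771 root counts, 30 stem counts and 9 leaf counts. At least 10 counts were recorded for 104 members in stem and 54 in leaf, so leaf levels rest on few counts for most members.

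The highest root levels belonged to short unigenes, and TPM divides a count by length. Unigene6049 (923 nt) stood at 915 TPM in root, 44.6 TPM in stem and 5.6 TPM in leaf, from 4872, 158 and 16 counts. Unigene38958 (821 nt) had 788 TPM in root, 45.4 TPM in stem and 7.70 TPM in leaf, from 3625, 139 and 19 counts. In both, stem lay well above leaf and far below root. The ID just below the second of these, Unigene38957, is among the 100 most counted and had a like profile, with 1475 TPM in root, 65.0 TPM in stem and 8.98 TPM in leaf.

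By count, different members led. Unigene57387 (2703 nt) had 6555 counts in root, 18 in stem and 1 in leaf. These correspond to 365, 1.51 and 0.10 TPM. Its root share was 211 times the stem share (95% interval 134 to 357) and 2157 times the leaf share (387 to 85220). Unigene39917 (2765 nt) had 6019 counts in root, 343 in stem and 153 in leaf, with levels of 327, 28 and 15.5 TPM. Its root share was 10.2 times the stem share (9.13 to 11.4) and 12.9 times the leaf share (11.0 to 15.3). Members of nearly equal root count therefore spanned most of the range of stem and leaf counts in the set.

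The unigenes near the middle of the set show a typical member. Unigene49804 (788 nt) had 620 counts in root, 34 in stem and 9 in leaf, or 142, 11.7 and 3.84 TPM. Unigene59922 (1461 nt) had 726, 38 and 8 counts in the same order, or 79.4, 6.24 and 1.63 TPM. Across members the median root share was 13.9 times the stem share and 38.3 times the leaf share, or 37.2 times with leaf counts of 0 set to 3. The ratio to stem was between 8 and 16 for 70 members, while the ratio to leaf was in that range for 26. Both ratios were at least 16 for 48 members, at least 32 for 27 and at least 100 for 4.

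**Figure D2:**
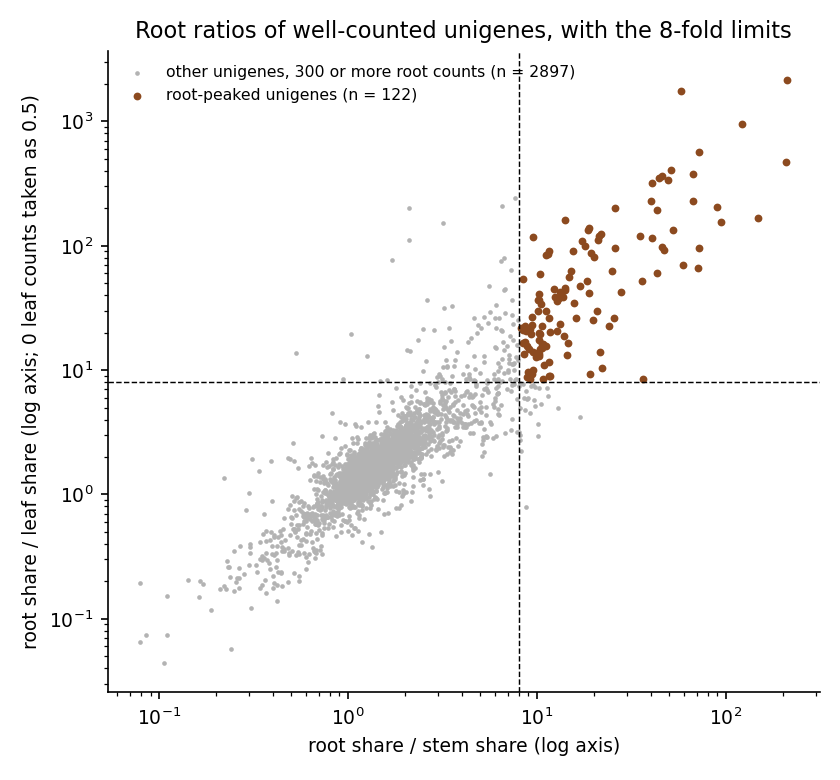
Root share over stem share (horizontal, log axis) and root share over leaf share (vertical, log axis) for the 3019 unigenes with 300 or more root counts outside the 100 most counted. Dashed lines mark 8-fold, brown points are the 122 members, and 109 of them have their smaller ratio over stem.

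Counting error leaves some memberships uncertain. The whole 95% interval lay beyond 8-fold over stem for 87 members, over leaf for 107 and over both for 81. Just inside the limit, Unigene40483 had 997, 70 and 15 counts in root, stem and leaf, and Unigene4376 had 319, 22 and 5, with smaller ratios of 8.27 and 8.42. Just outside it, Unigene41721 had 438, 32 and 9 counts in root, stem and leaf, and Unigene56837 had 437, 32 and 12, with smaller ratios of 7.95 and 7.93. At the count limit, Unigene39327 and Unigene42255 were inside with 302 and 307 root counts, and Unigene41120 and Unigene55158 were outside with 298 and 296.

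The highest lower bounds of the root to stem ratio were those of Unigene57387, given above, and of Unigene39933, a 5036 nt unigene. Unigene20057, Unigene54428 and Unigene19935 had higher ratios than Unigene39933, from fewer counts and with lower bounds. Unigene39933 had 5170 counts in root, 32 in stem and 11 in leaf, or 150 TPM in root, 1.39 TPM in stem and 0.59 TPM in leaf. Its root share was 93.8 times the stem share (66.4 to 137) and 155 times the leaf share (86.4 to 310). By the lower bound of the root to leaf ratio, Unigene57387 was followed by Unigene19929 (914 nt), with 2692 counts in root, 27 in stem and 0 in leaf. With leaf set to 3 counts its root share was 295 times the leaf share, while the 95% interval of the ratio began at 240.0. Its level was 512 TPM in root and 7.72 TPM in stem.

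Leaf counts of 0 were found in members that also stood far from stem. The 12 had between 310 and 2692 root counts and between 2 and 27 stem counts. Their root share was 40.5 to 209 times the stem share, with a median of 62.3, against a median of 13 over the members with leaf counts. With leaf set to 3 counts their root share was 34.0 to 295 times the leaf share, and their 95% intervals began at 27.5 to 240.0. The longest member, Unigene19935 (8045 nt), was among them, with 1462 counts in root, 7 in stem and 0 in leaf, or 26.2 TPM in root and 0.19 TPM in stem.

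Stem against leaf is the comparison that the rule did not use directly, although it capped both. With leaf counts of 0 taken as 0.5, the stem share exceeded the leaf share in 109 members and the leaf share was the higher in 13. With them set to 3, the ratio of stem to leaf fell below 1 in Unigene19860, Unigene20057, Unigene57712 and Unigene19951, at 0.38, 0.38, 0.57 and 0.94. The median ratio of stem to leaf was 2.37, or 1.94 with leaf counts of 0 set to 3. Among the 107 members with at least 10 counts over the stem and leaf libraries, the stem share was the higher in 94 (87.9%). Among all 34645 such unigenes outside the 100 most counted it was the higher in 57.2%. Among the 2897 other unigenes with 300 or more root counts it was the higher in 76.1%. On the scale of the deposited TPM these were 96.3% of the members and 79.8% of all, and with library sums of all unigenes 96.3% and 78.5%. They were not computed for the 2897 others. The deposited TPM and the library sums raise every log2 ratio of stem to leaf, by 0.51 and 0.46. By shares, 17.6% of the others and 8.41% of the 107 members lay between -0.5 and 0, so on the deposited TPM all of these were higher in stem. The median ratio was 2.21 over these members, 1.22 over the 2897 other unigenes with 300 or more root counts and 1.09 over all 34645. The difference was not tested, since each tissue had 1 library.

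The whole 95% interval of the ratio lay beyond 2-fold toward stem for 13 of the 107 members (12.1%) and toward leaf for 1. The background was 1.70% toward stem and 1.67% toward leaf over the 34645 unigenes, and it was 3.04% and 0.863% over the 2897 others with 300 or more root counts. The members apart depended on the scale, at 28 toward stem and 0 toward leaf with library sums of all unigenes, and 31 and 0 on the deposited TPM. No background was computed on those scales, and both raise the stem to leaf ratio of every unigene. Beyond equality, 52 members (48.6%) were higher in stem and 1 (0.935%) in leaf, where the background was 13.9% and 10.4% over all and 44.1% and 9.91% over the 2897 others. The share beyond equality toward stem was thus near that of the others, but the sets differed in stem and leaf counts, on which interval width depends. Members had fewer stem and leaf counts than most unigenes that were as well counted in root, with a median sum of 44, against 316 for the 2897 others. Of the 107 members, 58 had under 50 stem and leaf counts together, and their median ratio was 2.44, against 1.68 over 30 of the others in that range. There, 6 of the 58 members (10.3%) and 3 of the 30 others were apart beyond 2-fold toward stem, and 34.5% and 43.3% lay beyond equality. Within unigenes with at least 50 and under 200 stem and leaf counts together, the median ratio was 1.94 over 42 members, 1.32 over 576 of the others and 1.10 over all 12572. Toward stem, 66.7% of these members and 37.3% of these others lay beyond equality, and 16.7% and 5.73% beyond 2-fold. Toward leaf, 2.38% and 6.94% lay beyond equality, and 2.38% and 0.521% beyond 2-fold. Of 7 members with 200 or more counts, 57.1% lay beyond equality toward stem and 0 beyond 2-fold, against 45.8% and 2.27% of 2291 others. Toward leaf it was 0 beyond both, against 10.7% and 0.960%. The members' median ratio was 1.27, against 1.21 over the others. The lean toward stem was thus small in the few members with many shoot counts. It also varied with the limit applied: the median was 2.55 over 221 unigenes past 8-fold over leaf whatever their stem share, and 1.64 over 134 past 8-fold over stem whatever their leaf share.

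**Figure D3:**
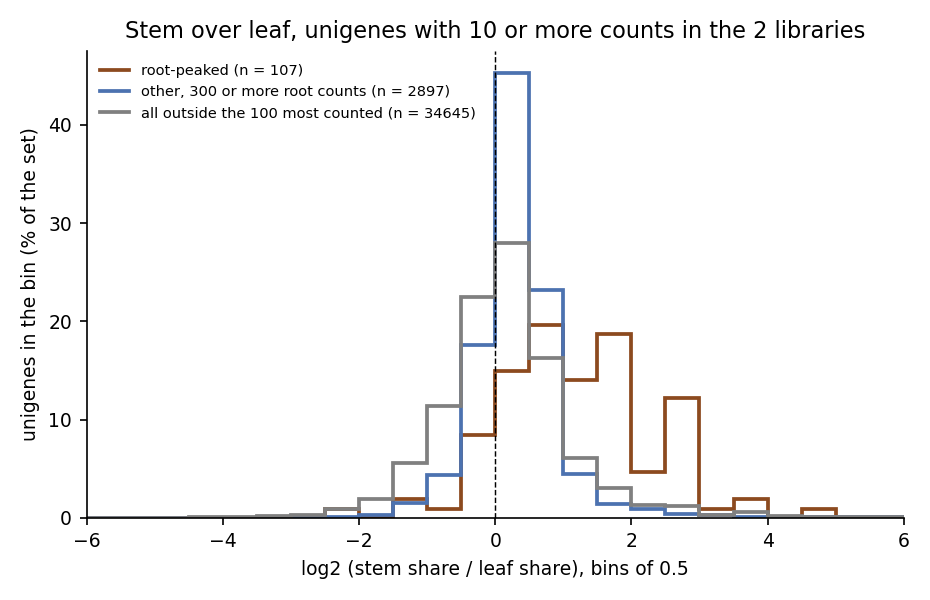
Distribution of the log2 ratio of stem share to leaf share, in bins of 0.5, as a percentage of each set: 107 root-peaked unigenes, 2897 other unigenes with 300 or more root counts, and 34645 unigenes outside the 100 most counted. The dashed line marks equal shares. The members lie further toward stem, with 94 of 107 above it, against 76.1% of the 2897 others and 57.2% of the 34645.

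Among the members furthest toward stem was Unigene30573 (1302 nt), with 1641 counts in root, 82 in stem and 6 in leaf, or 205, 15.4 and 1.39 TPM. Its stem share was 7.75 times its leaf share (95% interval 3.41 to 21.7). Unigene19929, without leaf counts, had a stem share 5.10 times its leaf share with leaf set to 3 counts, and its 95% interval began at 3.87. At the other end, Unigene62746 (2205 nt) had 998 counts in root, 16 in stem and 39 in leaf, or 69.2, 1.67 and 5.04 TPM. Its stem share was 0.23 times its leaf share (0.12 to 0.43), and it was the member counted above as apart toward leaf. By the upper bound of the interval Unigene41795 (2641 nt) came next, although 6 other members had lower ratios from fewer counts. It had 4016, 253 and 156 counts in root, stem and leaf, with a stem to leaf ratio of 0.92 (0.75 to 1.13), an interval that includes equality.

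Levels within the set moved together between the shoot tissues. Across the 122 members Spearman's rho of TPM was 0.862 for stem and leaf, 0.818 for root and stem and 0.671 for root and leaf. The same coefficients over the 2897 other unigenes with 300 or more root counts were 0.922, 0.803 and 0.716. These are descriptions across unigenes, which share the 3 libraries and their depth, and the rule ties the shoot levels of members to their root levels.

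The members were about as long as other unigenes of like root count. Their lengths ran from 569 nt (Unigene6596) to 8045 nt with a median of 1705 nt, against 1807 nt over the 2897 others and 565 nt over all 77047. Lengths from 1000 to 2000 nt were found in 64 members (52.5%) and in 42.0% of the others. Under 500 nt there were 0 members, against 14 of the others (0.483%) and 45.8% of all unigenes. Over 5000 nt there were 6 members, or 4.92%, against 4.73% of the others. The minimum of 300 root counts favours long unigenes, so the gap to all unigenes was set by the rule. Among members, length and root TPM had a Spearman rho of -0.488, and length and root count one of -0.046. TPM divides counts by length, so a negative rho with TPM follows where counts hardly vary with length. The shortest member, Unigene6596, had 595 counts in root, 16 in stem and 14 in leaf, or 211, 8.56 and 9.29 TPM. Its stem share was 0.65 times its leaf share (0.30 to 1.43).

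Many members had neighbouring IDs. Of the 122, 31 (25.4%) had a member at the next lower or next higher number, in 11 runs: 6 of 2 members, 2 of 3, 2 of 4 and 1 of 5. By comparison, 18 of the 2897 other unigenes with 300 or more root counts (0.621%) had a member at such a number. Adjacent IDs were common among well-counted unigenes: 785 of the 3019 with 300 or more root counts (26.0%) had another of the 3019 at such a number. For the 122 members that number was 48 (39.3%). The runs held 33.2% of the members' root counts. With each run counted once, the set comprised 102 entries. Root TPM differed by no more than 2-fold within 8 of the 11 runs. Whether the unigenes of a run are separate genes or forms of the same gene is not known from these files. Nor is it known how reads that match several of them were counted, and all deposited counts were whole numbers. Values within a run are therefore uncertain.

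The run of most root counts was Unigene57383 to Unigene57387, with lengths from 2550 to 3019 nt. In order of ID the root counts were 4407, 4869, 5105, 3484 and 6555. The stem counts were 59, 79, 50, 50 and 18, and the leaf counts were 24, 31, 24, 10 and 1. The root levels stood between 172 and 365 TPM, while the stem levels were between 1.51 and 6.85 TPM and the leaf levels between 0.10 and 3.33 TPM. The last of the 5 was highest in root and lowest in stem and leaf. The next number, Unigene57388 (3006 nt), is among the 100 most counted, with 7408 counts in root, 19 in stem and 0 in leaf, close to the profile of Unigene57387. Summed over the run, the 24420 root counts stood against 256 in stem and 90 in leaf.

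Unigene39916 (2439 nt) and Unigene39917 formed the run with the next highest root sum, 11978 counts, against 662 in stem and 333 in leaf. Unigene39916 had 371 TPM in root, 29.8 TPM in stem and 20.8 TPM in leaf, beside the 327, 28 and 15.5 TPM of its neighbour. These members had the highest stem counts of the set, 319 and 343, and stem and leaf shares were nearly level, with ratios of 1.0 (0.83 to 1.21) and 1.27 (1.05 to 1.55). In the run from Unigene53753 to Unigene53756 the sums were 2190 counts in root, 28 in stem and 1 in leaf. In the run of Unigene54427 and Unigene54428 they were 994, 9 and 1, so both runs were almost without leaf counts.

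**Figure D4:**
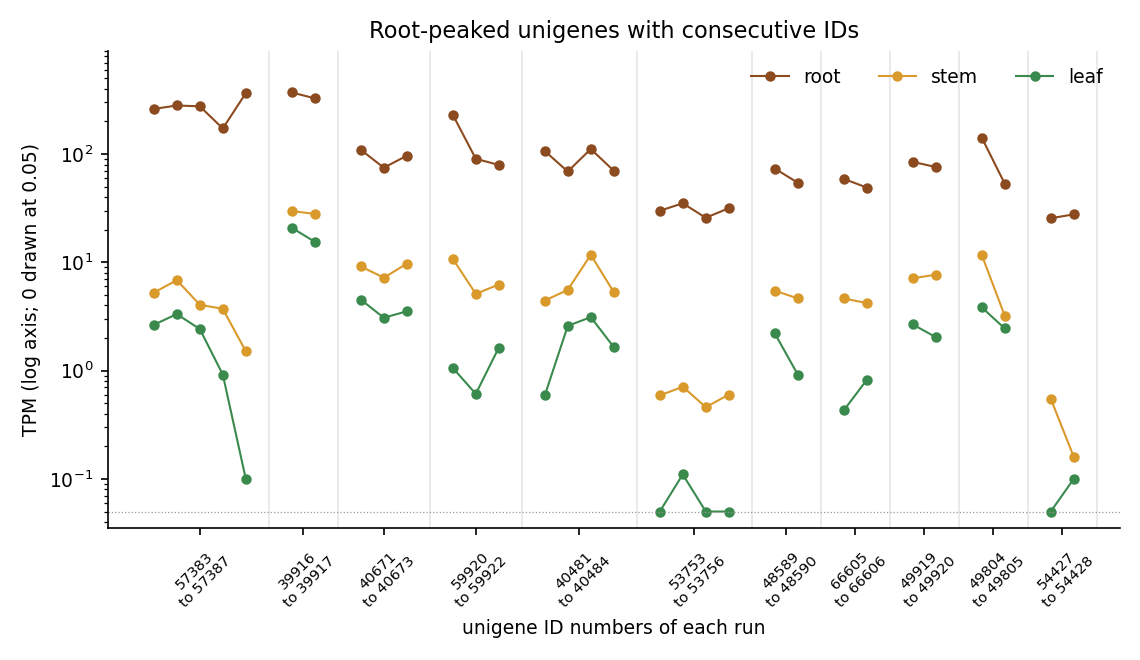
Level in TPM (log axis) of the 31 root-peaked unigenes that form 11 runs of consecutive IDs, with the runs ordered by summed root counts from left to right. Brown, orange and green points are root, stem and leaf, lines join the members of a run and carry no time or dose, and leaf counts of 0 are drawn at 0.05.

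Unigenes next to members, but below the count limit, passed both 8-fold ratios more often than other unigenes of like count. Among the 72 non-members at a number next to a member with at least 50 and under 300 root counts, 11 (15.3%) passed both 8-fold ratios. The share was 1.81% over all 13639 unigenes in that count range, and 1.74% over those not next to a member. Within 5 numbers of a member it was 8.33% of 264, and within 20 numbers 3.22% of 931. This count used unigenes that the rule could not have chosen. It was defined after the values were seen, and adjacent unigenes may share reads. Of the 11, Unigene60633, Unigene60634, Unigene60636 and Unigene60638 lay among the members Unigene60632, Unigene60635 and Unigene60639, and Unigene55179 and Unigene55181 flanked the member Unigene55180. Unigene19861, Unigene19930 and Unigene20056 lay in the stretch from 19860 to 20057 described below, and the others were Unigene35821 and Unigene49806. Most neighbours did not follow: the median root share of the 72 was 1.56 times the stem share and 1.61 times the leaf share. Over all 13639 these medians were 1.18 and 1.35.

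Members without leaf counts lay unevenly along the ID numbers. Of the 12 members without leaf counts, 6 lay within 198 consecutive IDs, from 19860 to 20057, and these were the only members in that stretch. They had 310, 2692, 1462, 575, 863 and 719 root counts in order of ID, from 2 to 27 stem counts and no leaf counts, and no pair of them was adjacent. The stretch was delimited by these members after the values were seen, so its values are a description. Besides them it held 54 unigenes with 10 or more root counts, of which 38 (70.4%) had 0 in leaf, against 5.42% of such unigenes outside it. The range from 20000 to 22999 overlaps the stretch and was chosen because each block of 1000 IDs exceeded 50% by this measure. There it was 73.1% of 629 unigenes, but that range held 1 member, Unigene20057, also counted in the stretch. Most of the range's unigenes without leaf counts also had 0 in stem: 142 of 219, 111 of 149 and 64 of 92 in the 3 blocks. How the assembly numbered its unigenes is not given in the sources used here, so a link between ID and tissue of origin was not tested. Of the remaining 6 members without leaf counts, 4 belonged to runs of consecutive IDs.

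**Figure D5:**
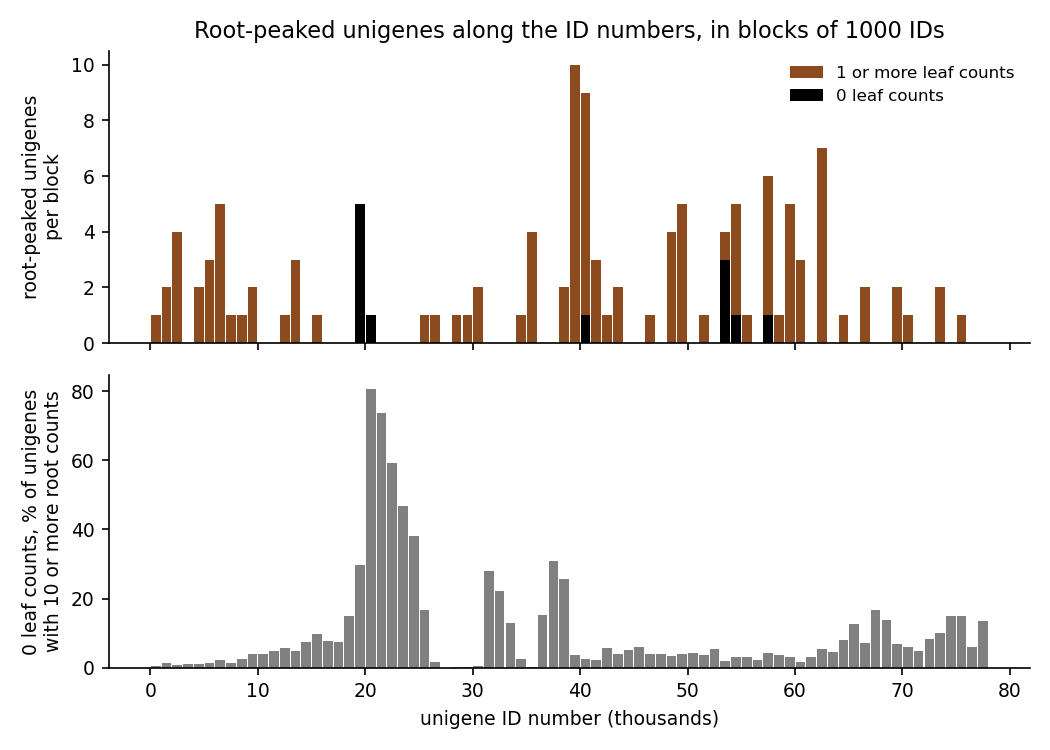
Upper panel: root-peaked unigenes per block of 1000 ID numbers, with black for those without leaf counts. Lower panel: percentage of unigenes with 10 or more root counts that have 0 leaf counts in the same blocks, which is highest from ID 20000 to 22999. This range overlaps the end of the stretch from 19860 to 20057, where 6 members without leaf counts lie.

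By this rule root had far more such unigenes than the shoot tissues. The same rule turned to stem, with 300 stem counts and 8 times the root and leaf shares, found 6 unigenes, and turned to leaf it found 7. With the minimum set to the same share as 300 root counts, which is 174 counts in stem and 98.7 in leaf, it found 11 and 15. With the 3 libraries thinned to 1432056 counts outside the 100 most counted and a minimum of 98.7 counts, 130 unigenes were root-peaked, 10 stem-peaked and 12 leaf-peaked. The rule is not alike for the 3 tissues, since stem-peaked unigenes had to exceed leaf and leaf-peaked ones stem. Over the 2897 other unigenes with 300 or more root counts, rho of TPM was 0.922 for stem and leaf. It was 0.803 for root and stem and 0.716 for root and leaf. How far the numbers of peaked unigenes depend on this was not tested. They compare 3 libraries, and plants or libraries of the same tissue may differ by amounts not measured here.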

How the data were processed

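Messenger RNA from root, stem and leaf was captured on oligo(dT) beads and made into strand-specific libraries, per the labels' protocols, with paired reads of 101 bases on average. Per the submitters' processing notes, Trimmomatic and RSEM were used. Which versions, assembler and aligner were used is not given in the sources used here. For each unigene the authors deposited, per the file headers, a length, an effective length, an RSEM expected count, a TPM and an FPKM. All deposited expected counts (100%) were whole numbers and were used as such. For members with 20 or more counts, deposited TPM differed by at most 0.239% from values recomputed from counts and effective lengths. The deposited merged table held the same FPKM, with 0 differences, and FPKM was not used further.

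From the counts, shares, ratios and exact intervals (Clopper-Pearson, for ratios conditional on the summed count) were computed in Python 3.11.15 with numpy 2.4.6, pandas 2.3.3 and scipy 1.17.1, and tested on simulated data. The stem and leaf comparison required 10 counts over the 2 libraries. edgeR 4.0.16 and DESeq2 1.42.0 under R 4.3.3 gave alternative scale factors only, since 1 library per tissue leaves no spread for their tests. Members, lists and tests were chosen with earlier results of these data known. Unigenes named are those highest by root TPM or root count, with extreme interval bounds or lengths, nearest to the limits or to the median shares, in the 2 runs of most root counts, or without leaf counts. Unigene38957, Unigene57388, the runs from Unigene53753 and Unigene54427 and the named neighbours below the count limit were chosen after their values were seen. Gene lists by function need gene names and were not used.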

Additional observations from a re-analysis of the deposited data

How the results depend on the processing

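Of 48 values recomputed, 25 stayed within 1.5 times (counts) or within the interval (shares and medians) and 23 moved. A turn of direction was looked for in the medians only, and 0 of them turned. The number of members was 88 with library sums of all unigenes, 113 and 129 with 200 and 50 most counted left out, 132 with TMM factors, 134 with DESeq2 size factors and 168 with deposited TPM. It was 130 at equal counts outside the 100 most counted, of which 111 were members as reported. It moved to 233, 1121 and 46 with root minima of 100, 10 and 1000, to 271 and 48 at 4-fold and 16-fold, and to 81 with whole intervals beyond 8-fold. Members apart toward stem and toward leaf, 13 and 1 as reported, numbered 28 and 0 with library sums, 31 and 0 with deposited TPM, 52 and 1 beyond equality, 0 and 0 beyond 4-fold, and 57 and 3 by a point ratio of 2-fold. By that point ratio the numbers were 4496 and 3114 over the 34645 unigenes, and 222 and 54 over the 2897 others. For members apart, no background was computed on the other scales. Relative to the scale used, library sums moved every log2 ratio of stem to leaf by 0.46 and deposited TPM by 0.51, and deposited TPM moved log2 root to leaf by 0.71. TMM and DESeq2 factors gave 11 and 1. The median stem to leaf ratio was 1.92 over members with at least 50 stem and leaf counts and 3.27 with library sums. The members' share of root, stem and leaf was 3.85%, 0.238% and 0.136% without the 100 most counted, and 1.64%, 0.0946% and 0.0361% of deposited TPM. Counting runs once or summing them, the 50-count median and library sums for the median were chosen after seeing the data. No paired analysis was possible because there was 1 library per tissue, and no replicate could be left out. Leaf depth limits statements on absence: 27 members had only 1 to 3 leaf counts.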
